A study of Mus musculus with 12 samples.

Results

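AP-1 is a dimeric transcription factor built from a FOS-family protein and a JUN-family protein, or from a JUN protein with a relative such as ATF3 or BATF. The 9 genes described here, *Fos*, *Fosb*, *Fosl1*, *Fosl2*, *Jun*, *Junb*, *Jund*, *Atf3* and *Batf*, were chosen by name from the 53465 genes of the deposited table, and all 9 were present and passed the filter on low counts in every comparison. RNA-seq was performed on LSKs (Lin- Sca-1+ c-Kit+ bone marrow cells, the gate that holds hematopoietic stem cells and multipotent progenitors) from *Tespa1*+/+ and *Tespa1*-/- mice, each either untreated or at day 9 after an injection of 5-fluorouracil (5-FU), a cytotoxic drug that kills cycling blood cells. Each of the 4 groups had 3 libraries: untreated *Tespa1*+/+, untreated *Tespa1*-/-, *Tespa1*+/+ after 5-FU and *Tespa1*-/- after 5-FU. The wild types were littermates, and the knockout strain, B6.129S-*Tespa1*tm1Smoc backcrossed to C57BL/6, was not described as limited to a cell type, so effects outside LSKs cannot be told apart from effects within them. By the study's methods the mice were male young adults, and the labels do not say whether a library came from 1 mouse or from a pool. Since nothing shows that the 3 libraries of a group were collected apart, p-values measure the spread between these libraries.

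AP-1 dimers bind a short palindrome, the TPA response element, and mostly regulate genes that answer growth factors, cytokines and stress. *Fos*, *Fosb*, *Jun*, *Junb* and *Atf3* are immediate-early genes: MAP kinase signalling switches on their transcription within minutes without new protein synthesis, and their messages decay fast. *Fosl1* and *Fosl2* follow more slowly, *Jund* is expressed more steadily, and *Batf* is best known in lymphocytes, where it pairs with JUN proteins. In blood stem cells, JUNB restrains the cell cycle and myeloid output. Tespa1 is an adaptor protein that acts in T-cell receptor and calcium signalling in thymocytes.

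In the gene table (GRCm38) the FOS genes lie at chr12:85473890-85477273 (*Fos*), chr7:19302696-19310051 (*Fosb*), chr19:5447703-5455945 (*Fosl1*) and chr5:32135801-32157842 (*Fosl2*). The JUN genes lie at chr4:95049034-95052222 (*Jun*), chr8:84974484-84978718 (*Junb*) and chr8:70698949-70700616 (*Jund*), and their relatives at chr1:191170296-191218039 (*Atf3*) and chr12:85686669-85709087 (*Batf*). The promoters of 5 of these genes are shown because signal-dependent factors bind such regions: *Fos* and *Jun* had the most reads of their families in untreated LSKs (after 5-FU *Fosb* averaged 877 and *Fos* 869.8 CPM in *Tespa1*+/+), and *Fosl2*, *Junb* and *Atf3* are the members that passed the test of whether the change with genotype depended on 5-FU, *Atf3* in 6 of 18 alternatives only. Sequences are from RefSeq (GRCm38.p6), 250 bases before to 50 bases after the annotated start, 5′ to 3′ on the gene's strand, and 8 of the 9 genes had such a window (*Fosl1* had none). Capitals mark matches to 4 motifs, searched on both strands: the core TGACG of the cAMP response element, the variant TGACATCA of that element, the letters TATAAA of the TATA box and the MEF2 motif. The regions are chr12:85473640-85473939 (*Fos*, plus strand), chr4:95052173-95052472 (*Jun*, minus strand), chr5:32136222-32136521 (*Fosl2*, plus strand), chr8:84978699-84978998 (*Junb*, minus strand) and chr1:191183284-191183583 (*Atf3*, minus strand).
Fos: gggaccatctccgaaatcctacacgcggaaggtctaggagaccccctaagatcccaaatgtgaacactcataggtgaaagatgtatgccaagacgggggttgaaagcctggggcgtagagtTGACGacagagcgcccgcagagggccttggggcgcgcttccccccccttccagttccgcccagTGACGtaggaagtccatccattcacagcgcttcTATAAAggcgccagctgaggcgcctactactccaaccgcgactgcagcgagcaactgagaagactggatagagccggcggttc
Jun: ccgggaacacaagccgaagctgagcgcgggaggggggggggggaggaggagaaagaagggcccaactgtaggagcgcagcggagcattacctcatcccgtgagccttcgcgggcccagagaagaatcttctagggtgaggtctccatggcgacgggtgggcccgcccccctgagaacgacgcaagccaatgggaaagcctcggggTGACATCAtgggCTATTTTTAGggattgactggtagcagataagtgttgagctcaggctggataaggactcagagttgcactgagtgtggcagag
Fosl2: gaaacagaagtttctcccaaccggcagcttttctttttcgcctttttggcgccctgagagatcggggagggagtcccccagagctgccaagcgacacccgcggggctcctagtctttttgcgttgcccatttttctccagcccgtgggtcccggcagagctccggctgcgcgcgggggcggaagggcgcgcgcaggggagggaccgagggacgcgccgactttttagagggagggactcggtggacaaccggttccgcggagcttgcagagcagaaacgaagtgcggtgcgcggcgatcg
Junb: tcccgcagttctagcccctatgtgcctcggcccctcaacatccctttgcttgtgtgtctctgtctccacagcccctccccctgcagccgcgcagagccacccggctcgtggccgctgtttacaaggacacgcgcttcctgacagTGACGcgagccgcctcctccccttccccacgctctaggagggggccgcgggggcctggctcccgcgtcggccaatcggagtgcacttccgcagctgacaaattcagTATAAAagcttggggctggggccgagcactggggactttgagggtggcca
Atf3: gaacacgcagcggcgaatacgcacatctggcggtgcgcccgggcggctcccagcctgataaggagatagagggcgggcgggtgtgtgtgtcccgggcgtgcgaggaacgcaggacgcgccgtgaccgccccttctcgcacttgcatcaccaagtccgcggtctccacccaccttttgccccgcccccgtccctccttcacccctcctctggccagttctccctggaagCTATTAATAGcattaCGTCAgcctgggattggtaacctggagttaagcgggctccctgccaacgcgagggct

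TGACG, the core that CREB and ATF proteins bind, was found in 5 of the 8 windows, those of *Fos*, *Fosb*, *Junb*, *Atf3* and *Batf*, and in 20.8% of all 32851 RefSeq windows of this length. In *Fos* it lay 129 and 66 bases before the start, with TATAAA 33 bases before it. In *Atf3* it lay on the reverse strand, 7 bases before the start and printed as CGTCA, next to a MEF2 motif. *Jun* held TGACATCA 45 bases before its start, followed by a MEF2 motif. In *Junb* TATAAA began at the annotated start itself, which lies 30 bases upstream of the start in the gene table. TGACATCA was in 3.62% of all windows, TATAAA (*Fos* and *Junb*) in 13.6% and the MEF2 motif (*Jun* and *Atf3*) in 3.19%. The full elements TGACTCA (5.2% of windows) and TGACGTCA (1.79%, which contains TGACG) and the CArG box that SRF binds (1.63%) were in none of the 8 windows, and *Fosl2* held no searched motif. Promoters that lie farther out are not covered, and the RefSeq starts of *Fosl2* and *Atf3* lie 671 and 34706 bases downstream of the outermost start in the gene table, and that of *Jund* 1210 bases upstream of it.

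Depth was even, with 22118154 to 28275079 counts per library on genes, and the smallest level taken as detectable, 3 counts, equals 0.106 to 0.136 CPM, the counts per gene scaled to library size. This limit covers counting error only. Members at 3 to 13 CPM (*Fosl1* and *Batf*) rested on 77 to 364 counts per library, and the others on 699 or more. Reads on *Tespa1* were lowered and not absent in the knockout, at 34.8 ± 0.235 CPM against 46.5 ± 3.41 CPM in untreated LSKs and 19.3 ± 1.82 CPM against 53.2 ± 5.37 CPM after 5-FU (SD, n = 3). The log2 fold changes were -0.42 (SE 0.09, adjusted p = 0.0316) and -1.47 (SE 0.12, adjusted p = 9.38e-05, edgeR). Stem and progenitor markers were present in every library, and 10 such genes, among them *Kit*, *Ly6a* and *Cd34*, summed to 1600.4 to 1672 CPM in *Tespa1*+/+ and 1332 to 1385 CPM in *Tespa1*-/- untreated LSKs. After 5-FU they summed to 1329 to 1374 and 800.4 to 868 CPM in the same genotypes. Between the treatments these genes went both ways (edgeR, adjusted p below 0.05). In *Tespa1*+/+ 2 of 10 were lower and 2 higher, where 4.18% and 3.77% of all genes were. In *Tespa1*-/- 3 were lower and 3 higher, where 8.64% and 10.7% of all genes were. *Flt3* and *Cd34* fell in both genotypes, and *Slamf1* rose in both. The part of these markers in the AP-1 differences was not tested.

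The AP-1 messages were abundant in LSKs. The 9 genes together took 0.713% ± 0.0247 of all counts in untreated *Tespa1*+/+ LSKs and 0.540% ± 0.0014 in untreated *Tespa1*-/- LSKs. After 5-FU the shares were 0.526% ± 0.00501 and 0.439% ± 0.00699 in the same genotypes (SD, n = 3). Compared per length as FPKM, *Jun* was highest in untreated *Tespa1*+/+ LSKs (772 ± 19.2 FPKM), followed by *Jund* (413 ± 38.6), *Fos* (407 ± 5.57) and *Junb* (337 ± 20.7). *Jund* and *Fos* did not differ beyond their spread. *Fosb* (70.4 ± 6.74 FPKM), *Atf3* (53.5 ± 4.82) and *Fosl2* (29.5 ± 0.614) formed a middle range, and *Batf* (7.16 ± 1.23) and *Fosl1* (6.07 ± 1.69) were lowest and overlapped. The same order held in the other 3 groups.

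The gene lengths behind the deposited FPKM values matched the sum of all distinct annotated exons, overlapping exons counted repeatedly, in 95.8% of 6733 genes with several transcripts (within 1%). *Fos* was thereby divided by 3792 bases where its merged exons span 2352, and *Fosb* by 16525 where they span 6243. Per kilobase of merged exons, *Fos* stood at 665 ± 7.79 CPM per kb in untreated *Tespa1*+/+ LSKs, second to *Jun* (782 ± 16.7) and above *Jund* (418 ± 37.4), and *Fosb* at 189 ± 17.98. The places of *Fos* and *Jund* were exchanged in this way in both untreated groups and in neither group after 5-FU. Levels between genes are given on this scale from here on.

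The summed level of the 4 FOS genes was 895 ± 12.4 CPM per kb in untreated *Tespa1*+/+ and 677 ± 9.11 in untreated *Tespa1*-/- LSKs, and 532 ± 15.99 and 441 ± 14.6 CPM per kb in the same genotypes after 5-FU (SD, n = 3). No libraries of different groups overlapped in this sum. The 3 JUN genes summed to 1541 ± 70.8, 1195 ± 12.5, 1223 ± 4.70 and 1101 ± 30.3 CPM per kb in these groups. The ratio of the FOS sum to the JUN sum was 0.581 ± 0.0215 and 0.567 ± 0.00884 in untreated *Tespa1*+/+ and *Tespa1*-/- LSKs, whose libraries overlapped, and 0.435 ± 0.0114 and 0.401 ± 0.0153 after 5-FU. Every library after 5-FU had a lower ratio than every untreated library. Within the FOS sum, *Fosl2* took 4.004% ± 0.133 in untreated *Tespa1*+/+ and 2.09% ± 0.0661 in untreated *Tespa1*-/-, while the share of *Fos* was 74.3% ± 1.68 and 77.0% ± 0.380. Within the JUN sum, *Junb* took 22.1% ± 0.451 in untreated *Tespa1*+/+ and 13.8% to 15.6% on average in the other groups.

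**Figure D1:**
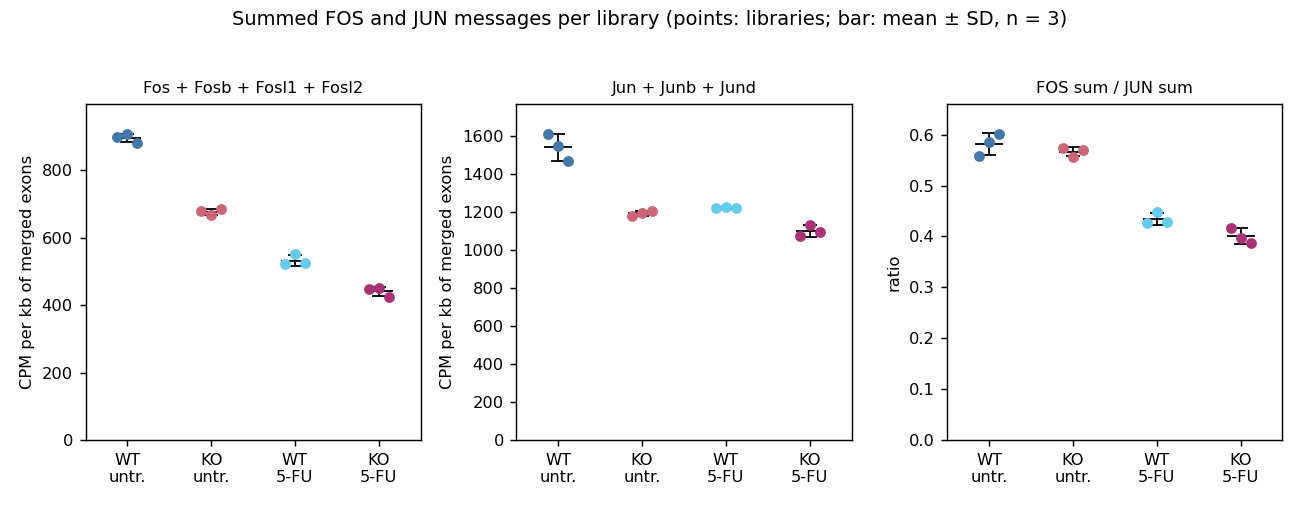
Summed levels of the FOS genes (left) and JUN genes (middle), in CPM per kilobase of merged exons, and their ratio (right), for the 4 groups; points are libraries and bars are means with SD, n = 3. Mean FOS sums are 895, 677, 532 and 441 in the order drawn, and the ratio is 0.557 or more in untreated libraries and 0.448 or less after 5-FU.

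The comparison of untreated LSKs asks what differs with the *Tespa1*-/- genotype without stress. In untreated *Tespa1*-/- LSKs 8 of the 9 AP-1 genes fell (edgeR, adjusted p below 0.05), where 3.59% of the 17055 genes tested were called lower. In the same 8 genes the 3 knockout libraries were all below the 3 wild-type libraries, as in 13.4% of all genes. With a fold change above 1.5 also required, 4 members passed (*Fosl1*, *Fosl2*, *Junb* and *Atf3*), against 1.54% of all genes. On the log2 scale, the members had a median of -0.43 and all genes one of 0.01. In this and every later comparison, the exact permutation test over 3 libraries against 3 gave p = 0.1 for groups that did not overlap, the smallest p it can give. Fewer cells that express a gene and less of its RNA per cell cannot be told apart in bulk libraries.

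Among the FOS genes, *Fosl2* (which encodes FRA-2, a FOS protein without a strong activation domain) had 349.6, 339 and 352 CPM in the untreated *Tespa1*+/+ libraries and 142, 133 and 136 CPM in the *Tespa1*-/- libraries. The groups lay far apart and varied little within themselves. *Fosl2* fell by 1.34 on the log2 scale (SE 0.05, adjusted p = 6.73e-06, edgeR), and no gene among the 17055 tested had a smaller p-value. *Fosl1*, encoding the related FRA-1, had 13.0, 11.2 and 7.34 CPM in *Tespa1*+/+ and 3.77, 3.64 and 3.36 CPM in *Tespa1*-/- (log2 fold change -1.55, SE 0.24, adjusted p = 0.00951, edgeR). It had the largest fold change among the members and the fewest reads, and its adjusted p was 0.0570 without the second *Tespa1*-/- library and 0.0573 without the third. *Fos*, the founding member, had 1579, 1544 and 1570.4 CPM against 1220.1, 1209 and 1246 CPM, a fall of 0.35 (SE 0.03, adjusted p = 0.000214, edgeR). *Fosb* had 1149, 1303 and 1084 CPM against 889, 861 and 873 CPM, a fall of 0.43 (SE 0.06, adjusted p = 0.00606, edgeR). The differences in *Fos* and *Fosb* were thus small, at 1.27-fold and 1.35-fold, but larger than the spread between libraries.

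Among the JUN genes, *Junb* changed most. *Junb* had 818, 805 and 734 CPM in untreated *Tespa1*+/+ and 426, 431 and 426 CPM in untreated *Tespa1*-/- libraries, a fall of 0.87 on the log2 scale (SE 0.05, adjusted p = 3.45e-05, edgeR). *Jun*, the JUN gene with the most reads, had 2534, 2515 and 2433 CPM against 2093, 2121 and 2118 CPM, a fall of 0.24 (SE 0.02, adjusted p = 0.0008, edgeR). *Jund* had 766, 681 and 644 CPM against 566, 577 and 593 CPM, and its fall of 0.27 (SE 0.06, adjusted p = 0.0447, edgeR) only just passed the threshold. The first *Tespa1*+/+ library was the highest of the 6 in *Jund*, and leaving out *Tespa1*+/+ replicate 2 or any *Tespa1*-/- replicate took away its call (adjusted p 0.0944 to 0.167), as did library totals in place of TMM factors (adjusted p = 0.0580). Reads of *Jun*, *Junb* and *Jund* could include those of *Junos*, *Prdx2* and *Gm11175* on the opposite strand, since the use of strand in the counting is not stated. The same holds for *Fosl1* with *Ccdc85b* and *Atf3* with *Gm24748*.

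*Atf3*, a stress-induced partner of JUN proteins that often represses, had 138, 152 and 127 CPM in untreated *Tespa1*+/+ and 57.6, 57.4 and 57.1 CPM in untreated *Tespa1*-/- libraries. It fell by 1.27 on the log2 scale (SE 0.08, adjusted p = 6.94e-05, edgeR). *Batf* had 11.4, 8.71 and 12.3 CPM against 10.9, 10.2 and 9.56 CPM, and its groups overlapped (log2 fold change -0.08, SE 0.18, adjusted p = 0.871, edgeR). Its standard error leaves room for changes of the size seen in *Fos* or *Jun*.

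**Figure D2:**
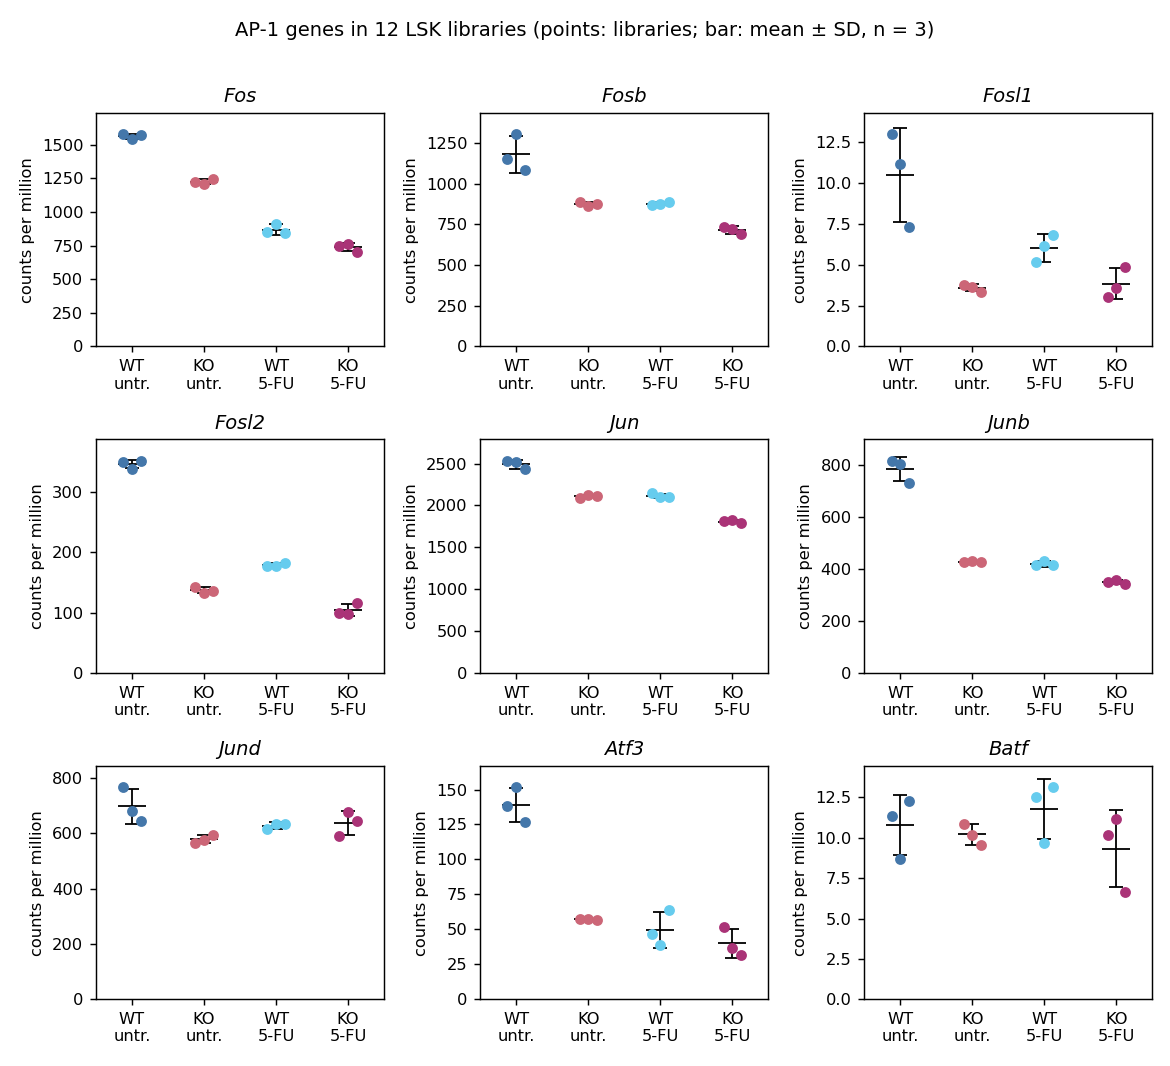
Level of each AP-1 gene in CPM in the 12 libraries, by genotype (WT, Tespa1+/+; KO, Tespa1-/-) and treatment; points are libraries and bars are means with SD, n = 3. All panels but that of Batf show the untreated Tespa1+/+ libraries above the untreated Tespa1-/- libraries, for example 339 to 352 against 133 to 142 for Fosl2.

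At day 9 after 5-FU, the time point the study chose as stress, 5 of the 9 genes were lower in *Tespa1*-/- than in *Tespa1*+/+ LSKs (edgeR, adjusted p below 0.05), where 5.78% of the 17239 genes tested were called lower. In 6 members the groups did not overlap, as in 15.5% of all genes. *Fosl2* alone also passed a fold change of 1.5, which 3.03% of all genes did. The median over the members was -0.30 on the log2 scale, and that of all genes tested -0.01.

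*Fosl2* had 178, 178 and 183 CPM in *Tespa1*+/+ and 98.7, 98.0 and 115 CPM in *Tespa1*-/- LSKs after 5-FU, a fall of 0.79 on the log2 scale (SE 0.08, adjusted p = 0.000191, edgeR). *Fosb* had 869, 875 and 885 CPM against 736, 719 and 689 CPM (log2 fold change -0.30, SE 0.04, adjusted p = 0.000698, edgeR). *Fos* had 849.7, 914 and 846 CPM against 749, 761 and 704 CPM (log2 fold change -0.24, SE 0.04, adjusted p = 0.00703, edgeR). All 3 of these FOS genes were lower in every *Tespa1*-/- library. *Fosl1* had 5.15, 6.13 and 6.82 CPM against 3.03, 3.56 and 4.88 CPM, and although the groups did not overlap, its log2 fold change of -0.66 (SE 0.27) did not pass the test (adjusted p = 0.156, edgeR).

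*Jun* had 2143, 2103 and 2104 CPM against 1810.1, 1826 and 1784 CPM after 5-FU, a fall of 0.23 (SE 0.02, adjusted p = 0.000206, edgeR). *Junb* had 415, 434 and 414 CPM against 352, 358 and 342 CPM, a fall of 0.27 (SE 0.04, adjusted p = 0.00368, edgeR). Both differences were small and clear of the spread between libraries. *Jund* had 614, 635 and 635 CPM against 589, 676 and 646 CPM, with overlapping groups and a log2 fold change of 0.02 (SE 0.05, adjusted p = 0.882, edgeR), whose sign turned with library totals in place of TMM factors (-0.01). *Atf3* had 46.4, 38.9 and 63.7 CPM against 51.7, 36.7 and 31.6 CPM, and *Batf* 12.5, 9.67 and 13.1 CPM against 10.2, 11.2 and 6.64 CPM. Neither passed the test, with log2 fold changes of -0.32 (SE 0.21, adjusted p = 0.395) and -0.34 (SE 0.24, adjusted p = 0.411, edgeR), and both varied more between libraries after 5-FU than most members did.

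The comparison with untreated LSKs asks what 5-FU itself changes. Between the treatments, 6 members fell in *Tespa1*+/+ LSKs and 6 in *Tespa1*-/- LSKs (edgeR, adjusted p below 0.05), where 4.18% of 17002 and 8.64% of 17228 genes tested were called lower. Groups did not overlap for 8 members in *Tespa1*+/+ (14.5% of all genes) and for 6 in *Tespa1*-/- (18.1%). With a fold change above 1.5, 4 members passed in *Tespa1*+/+ (1.69% of all genes) and 1, *Fos*, in *Tespa1*-/- (4.07%). The median log2 fold changes of the members were -0.80 and -0.30, against 0.01 and -0.01 over all genes.

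In *Tespa1*+/+ LSKs the mean of *Fos* went from 1564 ± 18.3 to 869.8 ± 38.1 CPM (SD, n = 3), a log2 fold change of -0.84 (SE 0.04, adjusted p = 7.33e-06, edgeR). In *Tespa1*-/- LSKs it went from 1225 ± 19.2 to 738 ± 30.0 CPM, a log2 fold change of -0.74 (SE 0.03, adjusted p = 2.74e-06, edgeR). *Fos* had the lowest log2 fold change of the 9 members in *Tespa1*-/- LSKs. *Fosl2* fell by 0.95 (SE 0.05, adjusted p = 1.79e-05) in *Tespa1*+/+ and by 0.41 (SE 0.075, adjusted p = 0.00548, edgeR) in *Tespa1*-/- LSKs. *Fosb* fell by 0.43 (SE 0.06, adjusted p = 0.00284) and 0.30 (SE 0.03, adjusted p = 0.00043, edgeR). *Fosl1* changed by -0.80 (SE 0.26, adjusted p = 0.105) and 0.08 (SE 0.25, adjusted p = 0.870, edgeR), neither of which passed, although without the third untreated *Tespa1*+/+ library the first was -1.001 and passed (adjusted p = 0.0456).

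*Junb* fell by 0.90 (SE 0.05, adjusted p = 1.92e-05) in *Tespa1*+/+ and by 0.30 (SE 0.04, adjusted p = 0.000709, edgeR) in *Tespa1*-/- LSKs. *Jun* fell by 0.23 (SE 0.03, adjusted p = 0.000629) and 0.24 (SE 0.02, adjusted p = 7.12e-05, edgeR). *Jund* had log2 fold changes of -0.15 (SE 0.06, adjusted p = 0.193) and 0.13 (SE 0.05, adjusted p = 0.125, edgeR), and without the first *Tespa1*-/- library after 5-FU the second was 0.18 and passed (adjusted p = 0.0197). *Atf3* fell by 1.48 (SE 0.16, adjusted p = 0.000741) in *Tespa1*+/+ and by 0.53 (SE 0.16, adjusted p = 0.0462, edgeR) in *Tespa1*-/- LSKs. The second of these calls stood near the threshold and was lost without any 1 of the 3 untreated *Tespa1*-/- libraries or without replicate 2 or 3 of *Tespa1*-/- after 5-FU (adjusted p 0.103 to 0.129). It was also lost with library totals (adjusted p = 0.0508), without the filter on low counts (0.0504) and with all 12 libraries fitted together (0.0695), so that it held in 5 of 13 alternatives of the edgeR fit or DESeq2. *Batf* changed by 0.13 (SE 0.21, adjusted p = 0.792) and -0.14 (SE 0.21, adjusted p = 0.692, edgeR), and its groups overlapped in both genotypes.

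**Figure D3:**
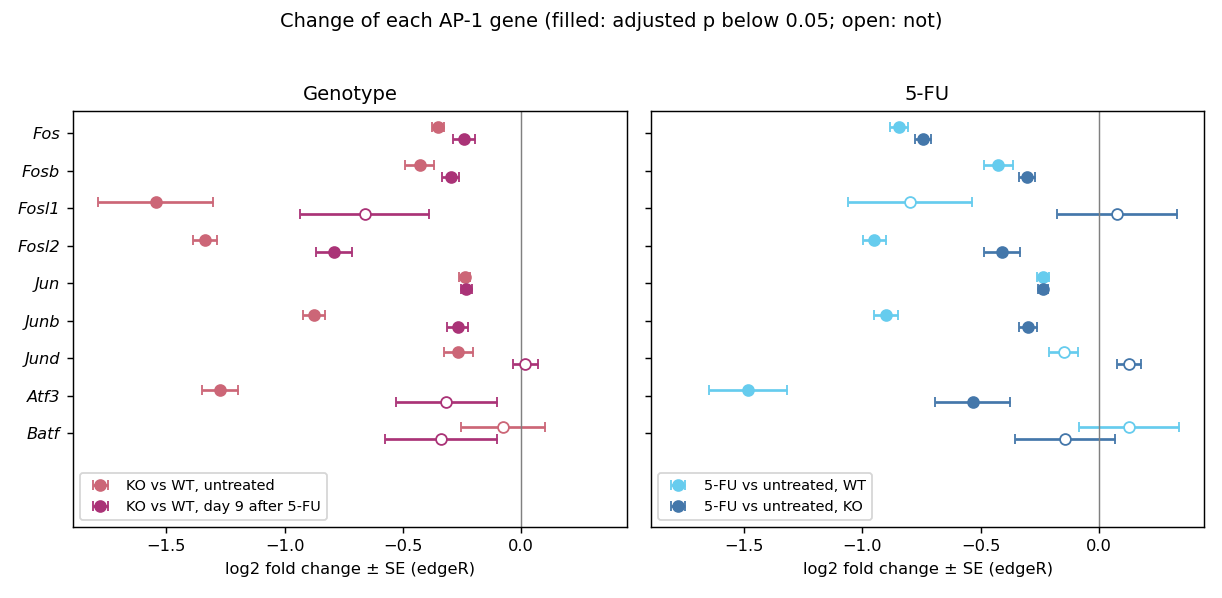
Log2 fold change with its standard error from edgeR for each AP-1 gene, knockout against wild type (left) and 5-FU against untreated (right); filled points have an adjusted p below 0.05. Fosl2, Junb and Atf3 lie farther from 0 in untreated LSKs than after 5-FU on the left (-1.34 and -0.79 for Fosl2), while both points of Jun lie at -0.24 and -0.23.

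The untreated *Tespa1*+/+ libraries are shared by the first genotype comparison and the 5-FU comparison in *Tespa1*+/+, and the other groups are likewise each used in a pair of comparisons, so these log2 fold changes are not independent of each other. Whether the difference between genotypes itself depended on 5-FU was tested as an interaction on the 12 libraries. A positive value means that the log2 fold change of knockout against wild type was higher after 5-FU than in untreated LSKs. A gene with such a value can be higher in the knockout than in the wild type after 5-FU, as *Tnfaip3* was (246 against 181 CPM). *Junb* (0.61, SE 0.06, adjusted p = 0.0001), *Fosl2* (0.55, SE 0.09, adjusted p = 0.00283) and *Atf3* (0.96, SE 0.25, adjusted p = 0.0451) passed this test (edgeR). Among the 18696 genes tested, 3.02% were called in that direction, and 1.66% with a difference of more than 1.5-fold, which 2 of the 3 members reached. *Junb* and *Fosl2* passed in all 18 alternatives run, with values of 0.57 to 0.66 and 0.45 to 0.58. The call for *Atf3* held in 6 of 18 and was lost without any 1 of 10 of the 12 libraries, with adjusted p from 0.00298 to 0.101 over all alternatives.

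*Jun* had an interaction of 0.01 (SE 0.03, adjusted p = 0.909, edgeR), and its sign turned in 7 of 18 alternatives. *Fos* (0.11, SE 0.05, adjusted p = 0.262), *Fosb* (0.13, SE 0.07, adjusted p = 0.377), *Fosl1* (0.89, SE 0.36, adjusted p = 0.192), *Jund* (0.29, SE 0.09, adjusted p = 0.0749) and *Batf* (-0.26, SE 0.30, adjusted p = 0.728) did not pass (edgeR). For *Jund* the interaction passed without the third untreated *Tespa1*+/+ library (0.34, adjusted p = 0.0326), without the first *Tespa1*-/- library after 5-FU (0.33, adjusted p = 0.0437) and in DESeq2 (0.28, adjusted p = 0.0325).

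Other genes around AP-1 were counted by list. Of 26 other immediate-early genes tested, 21 were lower in untreated *Tespa1*-/- LSKs and 1 was higher (edgeR, adjusted p below 0.05), where all genes were called lower in 3.59% and higher in 1.64% of cases. The list had a median of -0.81 on the log2 scale. The largest falls were those of *Plk2*, a kinase of the cell cycle and stress response (-1.73, SE 0.07, adjusted p = 6.73e-06), and *Nr4a3*, a nuclear receptor (-1.56, SE 0.20, adjusted p = 0.00342, edgeR). *Myc* was the gene that rose (0.44, SE 0.10, adjusted p = 0.0363, edgeR). After 5-FU, 9 were lower (5.78% of all genes), led by *Plk2* (-0.96, SE 0.10) and *Egr1* (-0.77, SE 0.04), and the list's median was -0.22. In the interaction 14 of 26 were higher (3.02% of all genes), led by *Tnfaip3*, a brake on NF-kB signalling (1.42, SE 0.17), and *Gadd45b* (1.09, SE 0.13), and the median was 0.62. Between the treatments 19 were lower in *Tespa1*+/+, where 4.18% of all genes were called lower and 3.77% higher. In *Tespa1*-/- 17 were lower and 1 higher, where 8.64% of all genes were called lower and 10.7% higher. *Nr4a3* (-2.27, SE 0.18) and *Ptgs2*, which encodes cyclooxygenase-2 (-1.75, SE 0.10), fell most in *Tespa1*+/+, and the same genes fell by 1.20 and 1.05 in *Tespa1*-/- LSKs, where *Sgk1*, a kinase of salt and stress responses, rose (0.96, SE 0.18).

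The MAP kinases and the factors that induce AP-1 genes had medians of -0.14 in untreated LSKs and 0.04 after 5-FU. Of 22 listed, 20 were found under these symbols and tested, and 2 were lower in untreated *Tespa1*-/- LSKs (3.59% of all genes), *Mef2d* (-0.49, SE 0.06, adjusted p = 0.00309) and *Srf*, the serum response factor (-0.34, SE 0.06, adjusted p = 0.0205, edgeR). After 5-FU 3 were lower and 1 higher (5.78% and 7.34% of all genes), with *Elk3* (-0.58, SE 0.12) and *Mef2c* (-0.57, SE 0.11) as the largest falls and *Rps6ka1*, encoding the kinase RSK1, as the rise (0.40, SE 0.06). In the interaction *Srf* was the 1 gene of the list called (0.62, SE 0.10, adjusted p = 0.00231, edgeR), where 3.02% of all genes were called higher. Between the treatments 2 of 20 were lower and 0 higher in *Tespa1*+/+, where 4.18% and 3.77% of all genes were. In *Tespa1*-/- 2 were lower and 2 higher, where 8.64% and 10.7% of all genes were. Of the genes so called, *Mef2d* had the lowest value in *Tespa1*+/+ (-0.48, SE 0.10). *Mef2c* had the lowest in *Tespa1*-/- (-0.83, SE 0.08), where *Srf* rose (0.41, SE 0.06).

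Among 19 further bZIP genes, whose products pair with AP-1 proteins or share their sites, 18 were tested in untreated LSKs, of which 4 were lower and 1 higher in *Tespa1*-/- (3.59% and 1.64% of all genes). *Maff*, a small MAF protein, fell by 1.33 (SE 0.28, adjusted p = 0.0304) and *Bach1*, a repressor of heme oxygenase, by 0.50 (SE 0.07, adjusted p = 0.00721, edgeR), while *Atf7* rose by 0.29 (SE 0.07, adjusted p = 0.0430, edgeR). After 5-FU 1 of 18, *Mafk*, was called lower (-0.33, SE 0.09, adjusted p = 0.0381, edgeR), a share near the 5.78% of all genes. *Atf4*, the factor of the integrated stress response, fell between the treatments in *Tespa1*+/+ (-0.65, SE 0.05) and was the 1 gene of 19 called in the interaction (0.55, SE 0.08, adjusted p = 0.00197, edgeR), where 3.02% of all genes were called higher. Between the treatments 1 of 18 was lower and 1 higher in *Tespa1*+/+, where 4.18% and 3.77% of all genes were. In *Tespa1*-/- 1 of 19 was lower and 2 higher, where 8.64% and 10.7% of all genes were, shares near those of the list. There *Bach2* rose (1.27, SE 0.17) and *Atf7* fell (-0.69, SE 0.21), and *Maf* rose in both genotypes (0.87 in each).

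Of 10 genes that act on AP-1 protein or message stability, 3 were lower in untreated *Tespa1*-/- LSKs (3.59% of all genes), and 2 were lower and 1 higher after 5-FU (5.78% and 7.34%). *Zfp36l2*, which encodes a protein that destabilises AU-rich messages, went from 1394 to 1048 CPM in untreated LSKs (log2 fold change -0.41, SE 0.03, adjusted p = 0.000119, edgeR) and fell in each of the other pairs of groups as well, by 0.35 to 0.38. Between the treatments *Zfp36l2* was the 1 gene of the 10 called lower in each genotype (4.18% and 8.64% of all genes). *Zfp36l1*, its relative, fell by 0.69 (SE 0.11) in untreated *Tespa1*-/- LSKs and by 0.48 (SE 0.12) in those after 5-FU. *Khsrp*, another factor of message decay, rose by 0.21 (SE 0.05, adjusted p = 0.0206, edgeR) after 5-FU. The 9 heat-shock genes, which answer a different kind of stress, had a median of 0.04 between the genotypes in untreated LSKs, where 8 were tested and 2 were higher in *Tespa1*-/- (1.64% of all genes), *Hsph1* (0.59, SE 0.08) and *Hspa1b* (0.43, SE 0.06). Between the treatments 5 of them fell in each genotype (4.18% and 8.64% of all genes), with log2 fold changes of *Hspa1b* of -1.82 in *Tespa1*+/+ and -1.70 in *Tespa1*-/-.

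**Figure D4:**
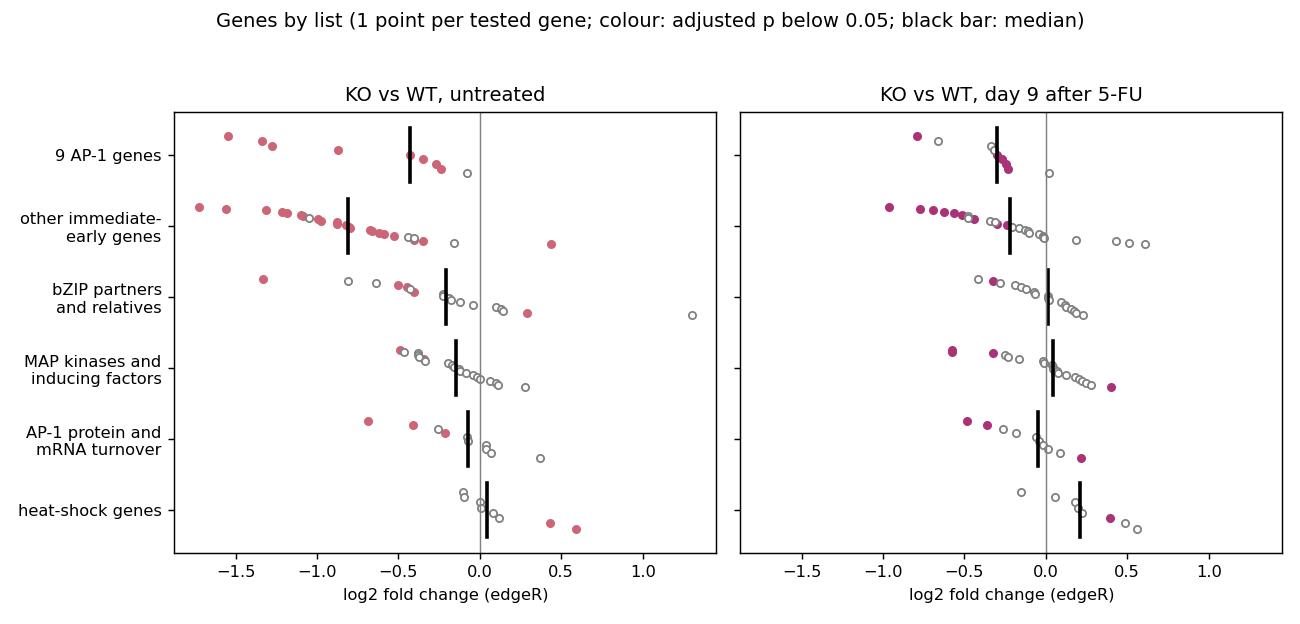
Log2 fold change (edgeR) of every tested gene of the AP-1 members and 5 lists, knockout against wild type in untreated LSKs (left) and at day 9 after 5-FU (right); coloured points have an adjusted p below 0.05 and black bars are medians. The median of the other immediate-early genes is -0.81 on the left and -0.22 on the right, and that of the heat-shock genes is 0.04 and 0.21.

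Of 26 genes known as AP-1 targets, 19 were tested in untreated LSKs, and 10 were lower in *Tespa1*-/- LSKs (3.59% of all genes). The largest falls were in *Lif*, a cytokine of the IL-6 family (43.9 to 10.403 CPM, log2 fold change -2.07, SE 0.45, adjusted p = 0.0348, edgeR), and *Areg*, a ligand of the EGF receptor (3.75 to 0.953 CPM, -1.97, SE 0.36, adjusted p = 0.0196, edgeR). After 5-FU 3 of 21 were lower and 7 higher (5.78% and 7.34% of all genes). *Cdkn1a*, which encodes the cell-cycle inhibitor p21, fell by 0.86 (SE 0.09, adjusted p = 0.000274), and *Bcl2l11*, which encodes the death-promoting BIM, by 0.77 (SE 0.18, adjusted p = 0.0218, edgeR). *S100a8* rose from 0.449 to 130.1 CPM and *S100a9* from 1.29 to 316 CPM, and both of these calprotectin genes also stand on the neutrophil list described next. In *Tespa1*+/+ 9 of 19 fell between the treatments (4.18% of all genes), *Areg* and *Lif* most (-3.05 and -2.94), and in *Tespa1*-/- 5 of 21 fell (8.64% of all genes), with *Bcl2l11* (-1.21) and *Cd44* (-0.84) at the head, and 8 rose (10.7%), among them *Mmp9*, a matrix protease, from 0.0730 to 24.4 CPM. Outside *Tespa1*-/- LSKs after 5-FU *Mmp9* averaged 0.195 CPM or less, a pattern shared with the mature neutrophil genes described next. The part of such cells in the rises on this list was not tested. In the interaction 9 of 21 were called higher (3.02% of all genes), and the median of the 21 was 1.15. Among those called *S100a8* and *S100a9* had the largest values.

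Markers of other blood cells moved with the groups, most of all in *Tespa1*-/- LSKs after 5-FU. The summed level of 12 neutrophil genes was 2332 to 2544 CPM in *Tespa1*+/+ and 5225 to 5515 CPM in *Tespa1*-/- LSKs after 5-FU, and 2413 to 2512 against 3288 to 3480.2 CPM in untreated LSKs. Most of each sum was *Mpo*, a gene of primary granules that myeloid progenitors also express, at 2293 and 3119 CPM on average in untreated *Tespa1*+/+ and *Tespa1*-/- LSKs and 2163 and 3611 CPM after 5-FU. After 5-FU 11 of 12 were higher in *Tespa1*-/-, as were 2 of 7 tested in untreated LSKs, and of all genes 7.34% and 1.64% were called higher in these comparisons, which applies equally to the erythroid and the eosinophil, basophil and mast cell counts. Of the genes of mature neutrophil granules and surface, *Ltf* was at 152 CPM, *Camp* at 65.0 CPM, *Cd177* at 30.9 CPM and *Ly6g* at 1.24 CPM on average in *Tespa1*-/- after 5-FU. In the other 3 groups *Ltf* was at 0.715 CPM or less, *Camp* at 0.233 or less, *Ly6g* at 0.0826 or less and *Cd177* at 0. The 9 erythroid genes summed to 37.6 to 51.7 CPM and 477 to 495 CPM after 5-FU, with 9 of 9 higher in *Tespa1*-/-, and to 10.1 to 18.9 and 31.0 to 36.3 CPM in untreated LSKs, with 1 of 7 higher. The 8 eosinophil, basophil and mast cell genes summed to 168 to 202 CPM in *Tespa1*+/+ and 785 to 883 CPM in *Tespa1*-/- after 5-FU, with 7 of 8 higher, and to 82.3 to 94.3 and 99.9 to 124 CPM in untreated LSKs, with 1 of 7 higher.

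In the other lists, 9 monocyte and macrophage genes summed to 170 to 199 CPM in *Tespa1*+/+ and 201 to 221 CPM in *Tespa1*-/- untreated LSKs, with 2 of 8 higher in *Tespa1*-/- (1.64% of all genes). After 5-FU they summed to 226 to 239.7 and 246 to 252 CPM, with 1 of 9 lower (5.78% of all genes). The 6 megakaryocyte genes had 1 of 5 higher in untreated LSKs (1.64% of all genes) and 2 of 6 after 5-FU (7.34%). Of the T and NK cell genes 3 of 7 tested were higher in *Tespa1*-/- after 5-FU (7.34%), and of the 8 B cell genes 3 of 7 were lower in untreated LSKs (3.59%) and 2 of 8 higher after 5-FU (7.34%). The T and NK cell genes summed to 28.1 to 30.4 CPM in *Tespa1*+/+ and 33.0 to 37.2 CPM in *Tespa1*-/- untreated LSKs, and to 32.9 to 40.3 and 69.2 to 76.5 CPM after 5-FU. *Cd3e*, the defining T cell gene, was at 0.919 CPM on average in *Tespa1*-/- after 5-FU and at 0.0151 CPM or less in the other groups, and *Gzma*, a granzyme gene, at 10.8 CPM and at 0.0595 CPM or less. *Cd4*, on the same list, went the other way between the treatments in *Tespa1*-/-, from 5.35 to 1.84 CPM (log2 fold change -1.55, SE 0.35, adjusted p = 0.0154, edgeR). Of the 10 stem and progenitor genes, 3 were lower in untreated *Tespa1*-/- LSKs (3.59% of all genes) and 7 after 5-FU (5.78%). Between the treatments, 3.77% of all genes were called higher in *Tespa1*+/+ and 10.7% in *Tespa1*-/-. The B cell genes went from 64.1 to 77.1 CPM up to 287 to 299 CPM in *Tespa1*+/+ (7 of 7 higher) and from 42.2 to 48.2 up to 327 to 344 CPM in *Tespa1*-/- (7 of 8). The megakaryocyte genes went from 44.2 to 50.8 up to 173 to 194 CPM in *Tespa1*+/+ (4 of 5 higher) and from 74.9 to 79.9 up to 251 to 263 CPM in *Tespa1*-/- (5 of 5). Of the neutrophil and erythroid genes, 3 of 8 and 4 of 7 were higher after 5-FU in *Tespa1*+/+, and 12 of 12 and 9 of 9 in *Tespa1*-/-. The part of these shifts in the AP-1 differences, between genotypes or treatments, was not tested. The share of counts on mitochondrial genes was 8.15% to 8.71% in *Tespa1*-/- LSKs after 5-FU, the group with the lowest FOS and JUN sums, and 9.42% to 10.2% in the other 9 libraries, and its part was likewise not tested.

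**Figure D5:**
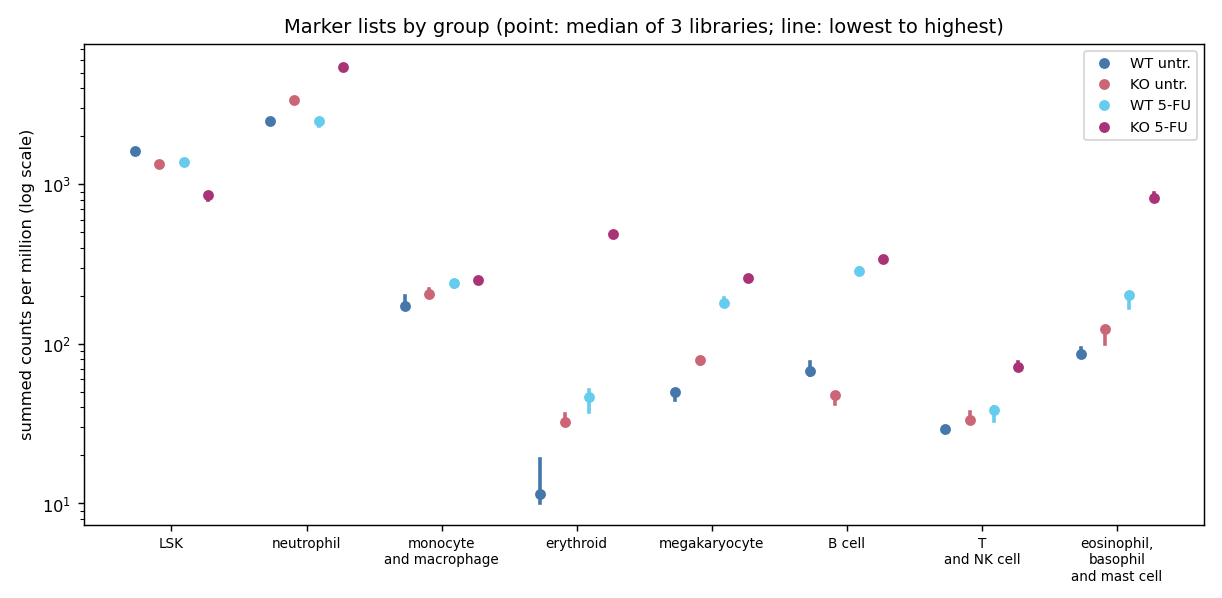
Summed level of 8 lists of marker genes in the 4 groups, in CPM on a log scale. Points are medians of 3 libraries and lines run from the lowest to the highest. Erythroid genes lie at 477 to 495 in Tespa1-/- LSKs after 5-FU and at 51.7 or less in the other groups.

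The genes whose levels followed each member most closely over the 12 libraries were found by Pearson's r of log2(CPM + 1) among 11200 genes with a mean of at least 5 CPM, as a description, since all libraries share the 4 groups. *Fos* was followed most closely by *Notch1* (0.985), *Ccl3* (0.984) and *Eef1a1* (0.982), and *Fosb* by *Dusp1* (0.977), *Jun* (0.974) and *Qk* (0.974). *Fosl2* was followed by *Runx3* (0.989), *Sik1* (0.988) and *Stk17b* (0.987), *Jun* by *Pde4b* (0.991), *Kdm6b* (0.989) and *Map4k4* (0.988), and *Junb* by *Trib1* (0.990), *Pim1* (0.987) and *Zc3h12a* (0.985). The lists are close at the top, since the gene at place 100 still had r of 0.928 to 0.944 for these 5 members. *Atf3* was followed by *Nfkbie* (0.982), *Nfkb2* (0.978) and *Zc3h12a* (0.969), of which the first encodes an inhibitor and the second a subunit of NF-kB. *Fosl1* had *Zyx* (0.939), *N4bp3* (0.938) and *Spty2d1* (0.929), *Jund* had *Cnnm2* (0.904), *Sqstm1* (0.888) and *Rab4a* (0.882), and *Batf* had *Tex2* (0.850), *Zfp266* (0.847) and *Pogk* (0.838).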

How the data were processed

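RNA-seq of LSKs was analysed from 12 libraries in 4 groups of 3, taken from the labels. The authors deposited raw counts per gene and FPKM values for 53465 genes. Per the labels, libraries were made with a stranded kit after poly-A selection and sequenced from both ends. The submitters' processing notes name CASAVA 1.8, HISAT2, StringTie, edgeR and GRCm38 without their roles; whether counting used strand is not stated. FPKM was used only to order levels between genes.

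The count test was edgeR 4.0.16 under R 4.3.3 (filterByExpr with a minimum count of 10, TMM factors, glmQLFit and glmQLFTest) on the 6 libraries of each comparison, or on 12 for the interaction. P-values were adjusted over all genes by the Benjamini-Hochberg method, and genes were called at an adjusted p below 0.05. CPM are scaled by TMM factors over the 12 libraries, and likeness used log2(CPM + 1). Permutation tests were two-sided and exact. Tables were made with pandas 2.3.3 and NumPy 2.4.6, permutation p-values with SciPy 1.17.1 and plots with matplotlib 3.10.9, all under Python 3.11. The code was tested on simulated data. Depth was 22118154 to 28275079 counts per library.

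Alternatives were DESeq2 1.42.0, RLE factors, library totals, no filter, a single fit of the 12 libraries, a minimum of 10 counts per library, a replicate block, each library left out, and a fold change above 1.5 with the adjusted or unadjusted p. Named genes are the 9 members, the 3 genes most like each, and from each list the 2 lowest and 2 highest among those called. Genes named beyond this are *Ly6g*, *Ltf*, *Camp*, *Cd177*, *Mpo*, *Cd3e*, *Gzma*, *Cd4*, *Kit*, *Ly6a* and *Cd34*, chosen after their values were seen. Members and lists were chosen with earlier results of these data known.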

Additional observations from a re-analysis of the deposited data

Results flagged for a closer look

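Of the 9 AP-1 genes, 3 differed between genotypes by an amount that itself depended on treatment, by edgeR's interaction test over 12 libraries. For *Fosl2* and *Junb* the call held in all 18 alternatives, while for *Atf3* it held in 6 of 18, with adjusted p up to 0.101, and with the replicate block 2 members passed. The log2 difference of differences was 0.55 for *Fosl2*, 0.61 for *Junb* and 0.96 for *Atf3*. In each, the *Tespa1*-/- libraries lay less far below the *Tespa1*+/+ libraries after 5-FU than without treatment, and the values of *Tespa1*+/+ fell further between the treatments than those of *Tespa1*-/-. For *Atf3*, the 3 libraries of each group after 5-FU spread widely (CV 25.6% and 26.1%) and untreated *Tespa1*-/- hardly at all (CV 0.474%). The neutrophil and erythroid marker sums of the *Tespa1*-/- libraries after 5-FU exceeded those of all other groups, and their part in these differences was not tested.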

How the results depend on the processing

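Over the 4 comparisons and the interaction, 584 of 630 log2 fold changes of members under an alternative kept their direction and their side of the threshold, 28 lost and 5 gained a call, and 13 changed sign; the cause was not tested. *Fos*, *Fosb*, *Fosl2*, *Jun* and *Junb* kept their calls in the 4 comparisons under every alternative of the fit. Requiring a fold change above 1.5 by construction removes small changes. With the adjusted or the unadjusted p it left 4 members lower in untreated *Tespa1*-/- LSKs, and 1 and 2 after 5-FU. Between treatments it left 4 and 5 lower in *Tespa1*+/+ and 1 and 1 in *Tespa1*-/-. For the interaction it left 2 and 3 higher. Leaving out each library gave 6 to 8 members lower in untreated LSKs, 5 in each fit after 5-FU, 6 to 7 between treatments in *Tespa1*+/+ and 5 to 6 in *Tespa1*-/-, where 0 to 1 were higher. Changes of sign were all in values that had not passed the test. Leaving out a library, *Batf* ranged from -0.21 to 0.022 between genotypes in untreated LSKs, from -0.0058 to 0.25 between treatments in *Tespa1*+/+ and from -0.29 to 0.049 in *Tespa1*-/-, *Fosl1* from -0.13 to 0.22 between treatments in *Tespa1*-/-, *Jund* after 5-FU from -0.027 to 0.074, and the interaction of *Jun* from -0.013 to 0.029. Library totals gave -0.013 for *Jund* after 5-FU and -0.03 for the interaction of *Jun*, which was -0.013 with at least 10 counts in every library.

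Same-numbered libraries did not deviate together (correlations of deviations -0.034 to 0.017), so no pairing by replicate number was seen. Whether libraries with the same replicate number shared a litter or day is not stated, and these correlations cannot decide it. With the number as a block, 7 members were lower in untreated LSKs (*Jund* had an adjusted p of 0.104), 5 after 5-FU, and 6 and 6 between treatments; 2 passed the interaction, and 454 genes were called in untreated LSKs against 892. DESeq2 called 1427 there, 2062 against 1352 between treatments in *Tespa1*+/+ and 1535 against 936 in the interaction. Without the filter on low counts the median log2 fold change of all genes was 0.22 in untreated LSKs, -0.38 between treatments in *Tespa1*-/- and -0.39 in the interaction. Ranking likeness by Spearman's rho shared 1 of 3 genes for *Fosl1* and *Atf3* and 0 for the other 7 members. Few libraries, and 77 to 364 counts for *Fosl1* and *Batf*, limit what could be detected in those genes.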
